A study of Homo sapiens with 12 samples.

Results

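Mitosis and spindle genes were examined in MV3, an established human melanoma cell line that came from a lymph node metastasis. The 38 genes form a list by function, and each was matched by its exact gene name. All 38 were found among the 58288 gene identifiers of the count table, and all 38 were among the 14088 genes that passed the filter on low counts. RNA was sequenced from 12 libraries in 4 groups of 3. Control cells (Ctrl) had fresh RPMI medium, and the other cells had RPMI medium that macrophages had conditioned. Cells of every group had their medium for 24 h. The macrophages derived from THP-1, a human monocytic line. M0 macrophages were differentiated with PMA (a phorbol ester), M1 macrophages were further polarized with LPS and IFNγ, and M2 macrophages with IL4 and IL13. All cells, controls included, had been grown with 10% FBS and then kept for 3 h with 1% FBS. All macrophages came from 1 cell line, and the labels do not say how much PMA, LPS, IFNγ, IL4 or IL13 remained in the conditioned media. Fresh medium had been conditioned by no cells, so in any comparison with Ctrl the conditioning itself and the kind of macrophage cannot be told apart.

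Cells enter mitosis when CDK1 bound to cyclin B becomes active. Polo-like and Aurora kinases then build the spindle and attach chromosomes to it through kinetochores, and the spindle assembly checkpoint holds back the anaphase-promoting complex until every chromosome is attached. Most of these genes are transcribed in a wave that peaks in G2 and mitosis, so in a bulk sample of cells their RNA follows how many cells divide as well as how much RNA each dividing cell holds. These bulk libraries cannot tell fewer dividing cells from less RNA per cell. Their promoters are known for the CHR, the cell cycle genes homology region, which is bound by the DREAM repressor complex and by its activating counterpart with MYBL2 and FOXM1, and for CCAAT boxes, which NF-Y binds.

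The promoter letters are shown first as a description of the members, and no link between them and the changes was tested. RefSeq promoters (GRCh38.p14, 250 bases before to 50 bases after a gene's start) were found for 31 of the 38 genes. There was none in the table for FOXM1, AURKA, TPX2, BIRC5, BUB3, TTK and UBE2C. The CHR was searched as TTTGAA or TTCGAA on both strands, and TTCAAA is TTTGAA read on the other strand. The windows below hold 30 bases each, 5′ to 3′ on the gene's strand, with the CHR in capitals. They were taken from genes of different roles, among them PLK1, SPC25 and ANLN, which had the largest change of their role group, and KIF14, which was not called in M1 against M0.
PLK1 (chr16:23678848-23678877, plus strand, CHR at -29): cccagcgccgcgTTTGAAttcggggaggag
CCNB2 (chr15:59105105-59105134, plus strand, CHR at -29): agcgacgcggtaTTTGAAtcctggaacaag
CDC20 (chr1:43358904-43358933, plus strand, CHR at -65): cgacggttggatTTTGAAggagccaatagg
BUB1 (chr2:110678045-110678074, minus strand, CHR at 2): ctgcgcggggtaTTCGAAtcggcggcggct
CENPA (chr2:26786026-26786055, plus strand, CHR at -18): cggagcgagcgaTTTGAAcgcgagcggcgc
SPC25 (chr2:168890416-168890445, minus strand, CHR at -3): aagtgcactaggTTTGAAatcggaaagttg
KIF14 (chr1:200620733-200620762, minus strand, CHR at 2): gcggggcgcccaTTCAAAttgcggccttct
ANLN (chr7:36389830-36389859, plus strand, CHR at -20): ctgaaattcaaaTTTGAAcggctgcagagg
In ANLN another match, TTCAAA at -26, lies directly before the one in capitals and is left in lower case. Positions are those of the first base of the CHR, counted from the start, which is 1, with -1 just before it.

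A pair of longer stretches, the 150 bases before the start, shows the CHR and CCAAT boxes (CCAAT, or ATTGG on the other strand) side by side. Capitals mark both motifs. KIF11 encodes the motor that pushes the spindle poles apart. MKI67 encodes the proliferation antigen Ki-67, and the last of its CHR matches overlaps a CCAAT box.
KIF11 (chr10:92592980-92593129, plus strand, CHR at -28, CCAAT at -53): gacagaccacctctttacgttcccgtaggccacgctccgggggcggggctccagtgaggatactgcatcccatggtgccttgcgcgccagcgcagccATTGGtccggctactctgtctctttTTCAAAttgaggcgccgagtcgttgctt
MKI67 (chr10:128126424-128126573, minus strand, CHR at -47 and -29, CCAAT at -98 and -24): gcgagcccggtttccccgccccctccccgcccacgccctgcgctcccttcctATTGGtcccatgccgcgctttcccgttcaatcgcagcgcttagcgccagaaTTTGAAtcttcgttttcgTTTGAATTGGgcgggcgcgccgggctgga

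A CHR lay in 24 of the 31 member promoters (77.4%), beside 16.6% of all 27305 promoters in the table and 13.5% of the 15843 of protein-coding genes. CHR and CCAAT were both present in 20 of the 31 (64.5%), beside 6.58% of all promoters. Of 104 promoters of other mitosis genes 44.2% held a CHR, and of 31 of DNA replication and nucleotide synthesis genes 9.68% did. In a narrower window, 100 bases before to 50 after the start, 22 of the 31 (71%) and 7.43% of all promoters held it. The 7 with no match in the window were CCNB1, CCNA2, CDC25C, AURKB, CENPE, KIF20A and KIF2C. A match is a description of letters, and binding was not measured. Mitotic genes are known for this motif, so a high share among the members says nothing about these libraries.

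Library totals ran from 21788397 to 42921242 counts, and a member had between 178 counts (SPC25) and 52982 counts (ANLN) in a library. The labels do not name replicates as separate cultures. The p-values therefore reflect spread among these libraries alone, which may be technical. Over all genes together, counting noise did not account for that spread. The chi-square of 2 replicates, divided by its degrees of freedom, ran from 3.01 to 25.6 and was not computed for the members alone. Markers of macrophages were near absent: the 16 genes summed to 0.501 to 1.12 CPM in a library (counts scaled to the library's total, with TMM factors), none passed the filter, and AIF1 and C1QB had no read in any library. The 8 melanocytic genes summed to 0.837 to 3.37 CPM, with TYR and S100B at 0 in all 12 libraries, and the 7 markers of dedifferentiated melanoma to 9881 to 13107 CPM. Of that sum VIM, with 6168 to 10379 CPM, was the largest part, SOX9 was low (11.4 to 64.8 CPM), and NGFR was at or near 0 in every library (at most 0.05 CPM).

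One feature of the libraries bears on every comparison and is given before them. Within M0, all 38 members were highest in replicate 3 and lowest in replicate 2. Within M1 all 38 were highest in replicate 2, and within M2 all 38 were highest in replicate 1. Of all 14088 tested genes, 5349 (38%) were highest in M0 replicate 3, 6045 in M1 replicate 2 and 5265 in M2 replicate 1. The median member stood 0.59 higher in M0 replicate 3 than in the mean of the other M0 libraries, on the scale of log2(CPM + 0.5), and 0.57 lower in M0 replicate 2 (the value is -0.57). It stood 0.40 higher in M1 replicate 2 and 0.39 higher in M2 replicate 1. The median SD between replicates in M0 was 0.39 for members and 0.11 for all genes. For M1 these values were 0.24 and 0.11, and for M2 0.23 and 0.08. In Ctrl the members were as tight as other genes, with 0.07 beside 0.11, and the highest library was replicate 1 for 10 of them, replicate 2 for 20 and replicate 3 for 8. The fits below used 1 spread per gene for all 4 groups. Standard errors (SE) and p-values for M0, M1 and M2 thus draw in part on the tighter Ctrl libraries, and may be too small. Fits of only the 2 groups compared called 37 members lower in M1 against M0 and 33 in M2 against M0. For M1 against M2 such a fit called 7. Of 121 other mitosis genes 99 were highest in M0 replicate 3, and of 35 replication genes 29. For M1 replicate 2 these counts were 84 and 23, and for M2 replicate 1 they were 92 and 18. M0 replicate 2 had the lowest total of the series, and the part of depth in this order was not tested.

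**Figure D1:**
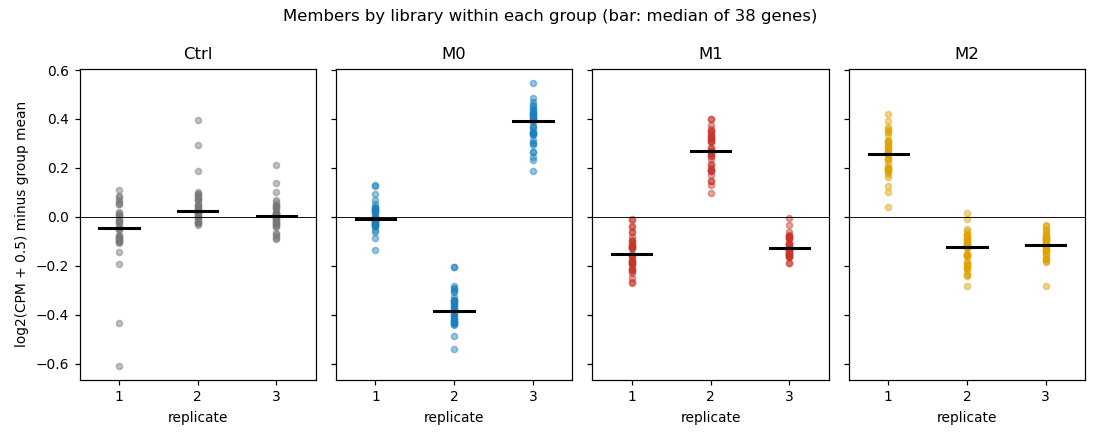
Each point is 1 of the 38 genes in 1 library, as log2(CPM + 0.5) minus the gene's mean over its group, and the bar is the median of the 38. The points of M0 replicate 3, M1 replicate 2 and M2 replicate 1 lie above 0 for every gene, while Ctrl replicates centre near 0.

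The genes were highest in fresh medium and lowest in M1 medium. Summed over the 38 genes, the level was 12094, 12842 and 12429 CPM in Ctrl, 7132, 5498 and 9177 CPM in M0, 5006, 3842 and 3964 CPM in M2, and 3203, 4285 and 3260 CPM in M1. The Ctrl libraries lay above all others and the M0 libraries above all of M1 and M2, while M1 and M2 overlapped. Mean CPM followed the order Ctrl, M0, M2, M1 for 35 of 38 members, the exceptions being BUB3, KIF14 and KIF4A. The share of all tested genes in that order was not computed. The members moved together from library to library, so these are not 35 separate results. The last step of that order, M2 to M1, was within the spread between replicates for most genes, as described below. Per kilobase of exon, Ctrl levels ran from 11.1 CPM per kb for KIF14 to 317 CPM per kb for TPX2, the activator of Aurora A at the spindle.

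**Figure D2:**
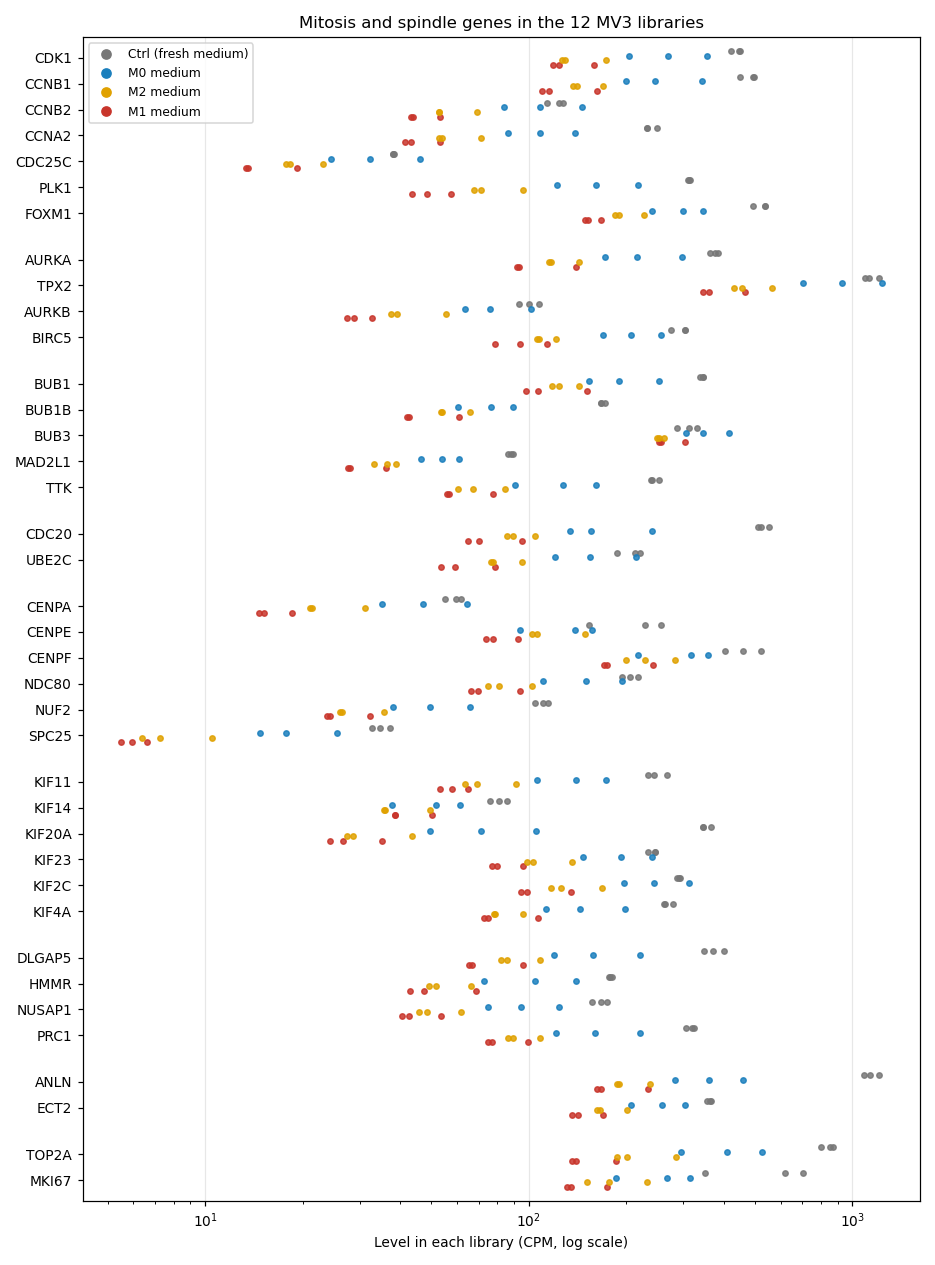
Levels of the 38 genes in CPM (log axis), 1 point a library, grouped from top to bottom by role. Grey Ctrl points lie farthest right for most genes, and yellow M2 and red M1 points lie left of blue M0 with overlap between M1 and M2.

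M1 medium was compared with M0 medium to see what LPS and IFNγ polarization of the macrophages changed for the melanoma cells. By edgeR's quasi-likelihood test with adjustment over all 14088 genes, 37 of the 38 members fell and none rose, where 26.7% of all tested genes fell. The median log2 fold change was -1.06, beside -0.01 over all tested genes, and 23 members fell at least 2-fold (3.2% of all tested genes). In 35 members all M1 libraries were below all M0 libraries, which was so for 30.1% of all tested genes. Without M0 replicate 3, the highest M0 library, 34 members still passed and the median was -0.82. CENPE, CENPF and MKI67 then missed the threshold (adjusted p = 0.068, 0.066 and 0.061), beside KIF14.

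All 7 genes of mitotic entry fell, with a median of -1.17. PLK1, the polo-like kinase that drives centrosome maturation and mitotic entry (ENSG00000166851.14, chr16:23677656-23690367, plus strand), changed most of all members. Its level was 161, 122 and 218 CPM in M0 and 43.5, 57.4 and 48.4 CPM in M1, beside 311, 313 and 315 CPM in Ctrl and 96.1, 67.9 and 71.4 CPM in M2. The M1 libraries lay below every other library of the series. The log2 fold change in M1 against M0 was -1.75 ± 0.17 (SE, adjusted p = 1.05e-06). CCNA2 (cyclin A2), CCNB2 (cyclin B2), CDC25C (the phosphatase that activates CDK1), CDK1 and CCNB1 (cyclin B1) fell by 1.28, 1.27, 1.17, 1.04 and 1.02 on the log2 scale. FOXM1, a transcription factor of G2 and mitotic genes, fell by 0.92. PLK1 and FOXM1 overlap exons of a gene on the opposite strand, and the strand setting of the counting is not known.

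The Aurora kinases and their partners fell in 4 of 4 cases. AURKB (ENSG00000178999.12, chr17:8204733-8210600, minus strand) is the kinase of the chromosomal passenger complex, which corrects faulty attachments. Its level was 75.9, 63.5 and 101 CPM in M0 and 28.7, 32.8 and 27.4 CPM in M1, with no overlap. Ctrl had 93.6, 100.3 and 108 CPM and M2 55.5, 37.6 and 39.1 CPM, so the highest M0 library reached the Ctrl range. This was a log2 fold change of -1.44 ± 0.16 (adjusted p = 3.47e-06). BIRC5 (survivin), a partner in the same complex, fell by 1.14, AURKA (Aurora A), which acts at the spindle poles, by 1.08 and TPX2 by 1.29 on the log2 scale.

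The 5 checkpoint genes all fell, though by less, with a median of -0.74 and falls between 0.39 and 1.00. TTK (ENSG00000112742.9, chr6:80003887-80042527, plus strand), the MPS1 kinase that starts checkpoint signalling, had 127, 90.4 and 161 CPM in M0 and 56, 77.4 and 56.6 CPM in M1. The lowest M0 library was above the highest M1 library. Ctrl had 239, 253 and 240.0 CPM and M2 84.4, 60.4 and 67 CPM. On the log2 scale TTK fell by 1.00 ± 0.17 (adjusted p = 0.00021). The mitotic kinase BUB1 and MAD2L1, which encodes MAD2, a part of the complex that inhibits CDC20, fell by 0.74 and 0.82. BUB1B, which encodes the CDC20-binding protein BUBR1, fell by 0.64, and its highest M1 library (61 CPM) lay above its lowest M0 library (60.4 CPM). BUB3, which carries BUB1 and BUBR1 to kinetochores, fell by 0.39, the smallest change among the called members.

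Both genes of the anaphase-promoting complex group fell. UBE2C (ENSG00000175063.16, chr20:45812576-45816957, plus strand), the ubiquitin-conjugating enzyme of that complex, had 154, 120.4 and 214 CPM in M0 and 53.6, 78.7 and 59.3 CPM in M1. Ctrl had 187, 220.4 and 214 CPM, so Ctrl and M0 overlapped, and M2 had 95.1, 76.4 and 77.6 CPM. UBE2C had a log2 fold change of -1.35 ± 0.17 (adjusted p = 1.47e-05). CDC20, the activator that the checkpoint inhibits, fell by 1.20.

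All 6 centromere and kinetochore genes fell, with values spread from -1.69 to -0.60. SPC25 (ENSG00000152253.8, chr2:168834132-168913371, minus strand), a subunit of the NDC80 complex that binds microtubules, had 17.7, 14.8 and 25.5 CPM in M0 and 5.96, 6.62 and 5.48 CPM in M1. Ctrl had 32.8, 37.1 and 34.7 CPM and M2 10.5, 7.24 and 6.37 CPM. M1 lay below M0 without overlap, while M2 and M1 overlapped. For SPC25 it was -1.69 ± 0.19 on the log2 scale (adjusted p = 4.05e-06). CENPA, the histone H3 variant that marks centromeres, fell by 1.61. The other NDC80 complex subunits NDC80 and NUF2 fell by 0.99 and 0.94. CENPE, a kinesin that moves chromosomes to the spindle equator, and CENPF, a large kinetochore protein, fell by 0.68 and 0.60, and the highest M1 library of CENPF (242 CPM) lay above its lowest M0 library (218 CPM).

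Of 6 kinesin motors 5 fell and KIF14 did not pass. KIF20A (ENSG00000112984.11, chr5:138178719-138187715, plus strand), a motor of the central spindle and cytokinesis, had 71.4, 49.4 and 105 CPM in M0 and 24.4, 35.2 and 26.7 CPM in M1. In Ctrl it had 365, 345 and 345 CPM, and in M2 43.6, 27.4 and 28.6 CPM. Every conditioned library lay well below Ctrl. The log2 fold change in M1 against M0 was -1.40 ± 0.22 (adjusted p = 0.0001). KIF11, KIF23 (a subunit of centralspindlin) and KIF2C (a microtubule depolymerase) fell by 1.25, 1.20 and 1.20, and KIF4A, a chromosome-bound kinesin, by 0.84.

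KIF14 (ENSG00000118193.11, chr1:200551497-200620734, minus strand), a kinesin of cytokinesis, had the smallest change of the members in M1 against M0. It had 51.7, 37.7 and 61.3 CPM in M0, 38.7, 50.4 and 38.7 CPM in M1, 49.5, 35.8 and 35.8 CPM in M2 and 81, 85.4 and 76.1 CPM in Ctrl. The 3 conditioned media overlapped, and all of them lay below Ctrl. In M1 against M0 its log2 fold change was -0.24 ± 0.16 (adjusted p = 0.21), and the value ± 2 SE ran from -0.56 to 0.07. That range overlapped the range of BUB3, from -0.59 to -0.19. Without M0 replicate 2, its lowest M0 library, KIF14 passed, with a log2 fold change of -0.39 (adjusted p = 0.031). Without a filter on low counts it passed as well (adjusted p = 0.039), though its value there was no larger, at -0.23.

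The spindle microtubule proteins fell in 4 of 4 cases within a narrow range, by 1.00 to 1.13 on the log2 scale. DLGAP5 (ENSG00000126787.12, chr14:55148112-55191678, minus strand), the spindle protein HURP, had 158, 119 and 221 CPM in M0 and 65.3, 96 and 66.6 CPM in M1. Ctrl had 348, 399.9 and 371 CPM and M2 108, 82.3 and 85.9 CPM. Again M0 and M1 did not overlap. DLGAP5 had a log2 fold change of -1.13 ± 0.19 (adjusted p = 0.00013). NUSAP1 and HMMR, which bind spindle microtubules, fell by 1.11 and 1.00, as did PRC1, the bundler of the central spindle, by 1.00.

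Both cytokinesis genes fell. ANLN (anillin, ENSG00000011426.10, chr7:36389806-36453791, plus strand), a scaffold of the contractile ring, had 359.7, 284 and 458 CPM in M0 and 163, 234 and 167 CPM in M1. Its Ctrl level of 1210, 1134 and 1089 CPM was far above both, and M2 had 237, 187 and 190.5 CPM. ANLN had a log2 fold change of -0.97 ± 0.16 (adjusted p = 0.00012). ECT2, the exchange factor that activates RhoA at the cell equator, fell by 0.78.

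TOP2A (ENSG00000131747.14, chr17:40388516-40417950, minus strand), the topoisomerase that untangles sister DNA, had 408, 295 and 525 CPM in M0 and 139.9, 185 and 136 CPM in M1. The M2 libraries had 284, 187 and 201 CPM, and Ctrl had 874, 855 and 798 CPM. The groups M1, M2, M0 and Ctrl followed each other without overlap in that order. The log2 fold change in M1 against M0 was -1.41 ± 0.18 (adjusted p = 1.64e-05). MKI67 fell by 0.81.

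**Figure D3:**
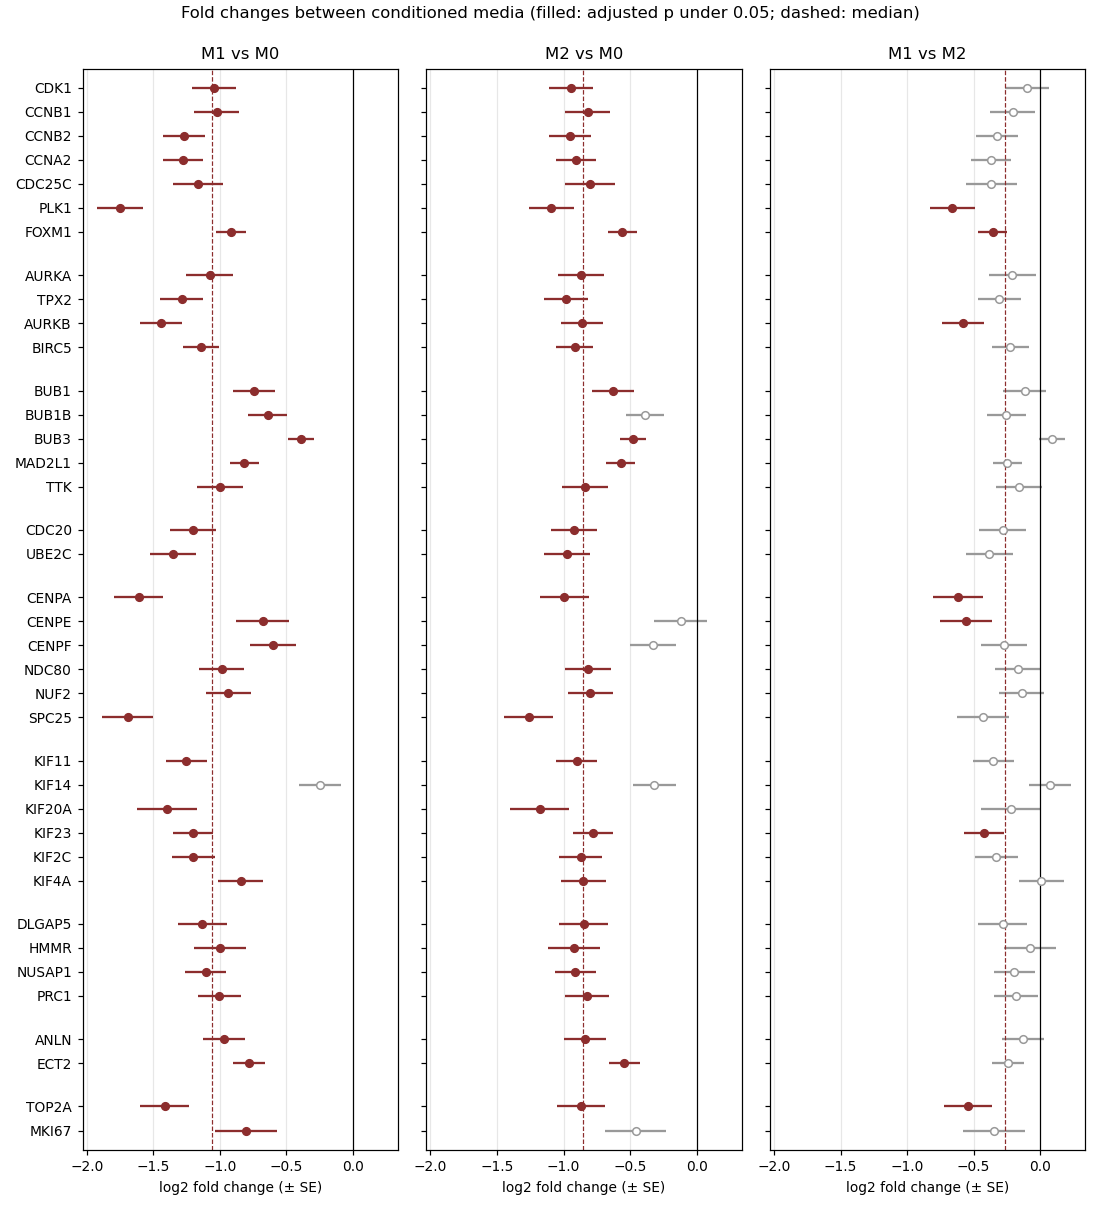
Log2 fold change ± SE of each gene from the edgeR fit in M1 against M0, M2 against M0 and M1 against M2, with filled points where the adjusted p was under 0.05 and a dashed line at the median of the 38. Nearly all points are filled in both comparisons with M0, while 7 are filled in M1 against M2.

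M2 medium was compared with M0 medium for the effect of IL4 and IL13 polarization. In this comparison 33 of 38 members fell and none rose, where 12.7% of all tested genes fell. The median log2 fold change was -0.85, with a range from -1.26 (SPC25) to -0.12 (CENPE), beside 0.00092 over all tested genes. Only PLK1, SPC25 and KIF20A fell at least 2-fold, by 1.09, 1.26 and 1.18 on the log2 scale (0.703% of all tested genes fell as far). In the 33 called members all M2 libraries lay below all M0 libraries, which was so for 23.8% of all tested genes. Both comparisons with M0 use the same M0 libraries, so the count in M2 is not independent of the count in M1.

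The 5 members that did not pass in M2 against M0 were BUB1B (-0.39 ± 0.14), CENPE (-0.12 ± 0.20), CENPF (-0.33 ± 0.17), KIF14 (-0.32 ± 0.16) and MKI67 (-0.46 ± 0.23). CENPE had 149.6, 102 and 106 CPM in M2 beside 139, 93.6 and 156 CPM in M0, and the value ± 2 SE ran from -0.51 to 0.27. The M2 and M0 libraries of CENPE lay in each other's range. Leaving out M0 replicate 3 left 32 members with a median of -0.63, and BUB1 then missed the threshold (adjusted p = 0.08). BUB1 also missed it without M2 replicate 3 (adjusted p = 0.056). BUB1B and KIF14 passed without M2 replicate 1, the highest M2 library, and BUB1B, CENPF and KIF14 passed without M0 replicate 2. Without a filter on low counts BUB1B, CENPF, KIF14 and MKI67 all passed (MKI67 with adjusted p = 4.47e-09). The log2 fold change of MKI67 was -0.47 in that setting, close to the -0.46 ± 0.23 above. Its p-value thus fell with hardly any change in size. That setting also raised the M1 against M2 count from 7 to 21, and its p-values are not read as stronger evidence. BUB1B also passed with DESeq2 (adjusted p = 0.031). With both M0 replicate 3 and M2 replicate 2 left out, 11 members passed and the median was -0.55. M1 against M0, which loses M0 replicate 3 alone in that setting, had 34. By summed level of the members this pair is the highest M0 and the lowest M2 library. Leaving both out brings the M2 and M0 means closer by construction and leaves fewer libraries. The part of either in the lower count was not tested.

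M1 and M2 media were then compared with each other. Of the 38 members 7 were lower in M1 and none was higher, where 16.6% of all tested genes were lower. The share of members, 18.4%, was near that background. The 7 were PLK1 (-0.66 ± 0.17), CENPA (-0.62 ± 0.19), AURKB (-0.58 ± 0.16), CENPE (-0.56 ± 0.20), TOP2A (-0.54 ± 0.18), KIF23 (-0.42 ± 0.15) and FOXM1 (-0.36 ± 0.11). In these 7 and in no other member all M1 libraries lay below all M2 libraries. That share of the 38 was below the 25.9% of all tested genes. The median over the 38 was -0.26, beside -0.03 over all tested genes. With 1 library left out it ran from -0.41 (without M1 replicate 2) to -0.14 (without M2 replicate 1). Among the 31 members that did not pass, values ± 2 SE ran from -0.83 to 0.39.

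The M1 against M2 count depended on single libraries. It was 0 without M2 replicate 1, the highest M2 library. Without M1 replicate 1 or M1 replicate 3 it was 2, PLK1 and AURKB in both cases. FOXM1 and CENPA then missed the threshold (adjusted p = 0.073 and 0.080 without M1 replicate 1, 0.073 and 0.064 without M1 replicate 3), as did CENPE, KIF23 and TOP2A. Without M1 replicate 2, the highest M1 library, the count was 12. The setting without M0 replicate 3 and M2 replicate 2, the lowest M2 library by summed level, gave 11. CENPE, KIF23 and TOP2A also depended on the method. CENPE missed the threshold with DESeq2 and with limma on the deposited values (adjusted p = 0.098 and 0.057), KIF23 with limma (adjusted p = 0.052) and TOP2A with DESeq2 (adjusted p = 0.083). CENPE and KIF23 also missed it with a replicate block (adjusted p = 0.057 and 0.053). At a minimum change of 1.5-fold, 2 members remained, PLK1 and CENPA, where 4.5% of all tested genes were lower. A joint test for any difference among M0, M1 and M2 called 37 members, all but KIF14, where 56.6% of all tested genes were called.

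Fresh medium was the study's control. In M0 against Ctrl 29 of 38 members were lower and none was higher, where 30.6% of all tested genes were lower. The median log2 difference was -0.76, beside 0.0040 over all tested genes, and the range ran from -2.22 ± 0.22 (KIF20A) to 0.20 ± 0.10 (BUB3). Next to KIF20A stood ANLN and CDC20, at -1.64 ± 0.16 and -1.58 ± 0.17. Without M0 replicate 3 the count was 37, with BUB3 the exception. In 27 members all M0 libraries lay below all Ctrl libraries (31.9% of all tested genes), while CENPE and NDC80 passed with overlap. NDC80 (-0.44 ± 0.17) missed the threshold without M0 replicate 1 or 2 and without Ctrl replicate 2 or 3 (adjusted p = 0.076, 0.14, 0.082 and 0.06). The 9 that did not pass were CCNB2, CDC25C, TPX2, AURKB, BUB3, UBE2C, CENPA, KIF23 and KIF2C.

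Some of the genes that did not pass in M0 against Ctrl differed widely between M0 and M1. CCNB2 had 114, 128 and 124 CPM in Ctrl, 108, 84.1 and 146 CPM in M0, 43.3, 53 and 43.9 CPM in M1 and 69.4, 53 and 52.6 CPM in M2. Its M0 libraries spanned the Ctrl range, and its M1 and M2 libraries lay below both. CENPA likewise had 55.1, 59.4 and 61.6 CPM in Ctrl and 47.1, 35.2 and 64.6 CPM in M0, but 14.7, 18.5 and 15.2 CPM in M1. Its log2 difference was -0.26 ± 0.18 in M0 against Ctrl and -1.61 ± 0.19 in M1 against M0. Without M0 replicate 3 both passed in M0 against Ctrl, CENPA at -0.52 (adjusted p = 0.012) and CCNB2 at -0.36 (adjusted p = 0.031), so their place among the 9 depends on that library. For KIF20A the order of sizes was the other way, -2.22 ± 0.22 and then -1.40 ± 0.22. These pairs of values share the M0 libraries and were not tested against each other.

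In M1 against Ctrl 37 members were lower, all but BUB3, where 35% of all tested genes were lower. In M2 against Ctrl all 38 were lower, where 32.4% of all tested genes were. The medians were -1.76 and -1.56, beside -0.0038 and 0.02 over all tested genes. KIF20A had the largest differences, -3.62 ± 0.23 (12.3-fold lower) in M1 and -3.40 ± 0.23 (10.5-fold lower) in M2. CDC20 was 6.88-fold lower in M1, PLK1 6.30-fold and ANLN 6.10-fold.

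BUB3 was the member nearest to its control level. It had 288, 331 and 313 CPM in Ctrl, 346, 307 and 415 CPM in M0, 253, 305 and 256 CPM in M1 and 263, 253 and 249.6 CPM in M2. M0 and M1 overlapped Ctrl, while M2 lay below it. The log2 difference in M2 against Ctrl was -0.28 ± 0.10 (adjusted p = 0.019). It missed the threshold without Ctrl replicate 2, M2 replicate 2 or M2 replicate 3 (adjusted p = 0.06, 0.052 and 0.06). In M1 against Ctrl the value was -0.19 ± 0.10 and did not pass. It was -0.25 without Ctrl replicate 1 and -0.28 without M1 replicate 2, and passed in both cases (adjusted p = 0.045 and 0.023). It also passed without scaling (-0.28, adjusted p = 0.015) and without a filter on low counts (-0.20, adjusted p = 0.017). In M0 against Ctrl BUB3 was higher without M0 replicate 2 (0.28, adjusted p = 0.022).

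Among the members, those with long transcripts had smaller changes. Exon length ran from 1286 bases (UBE2C) to 12807 bases (MKI67). Across the 38 genes Spearman's rho between exon length and log2 fold change was 0.63 in M1 against M0 and 0.66 in M2 against M0, beside 0.18 and 0.16 over the 14048 tested genes with a length. These are descriptions across genes of the same libraries. In M1 against M0 the 3 members under 2 kb had a median of -1.61 and the 4 of 8 kb and over, BUB3, CENPE, CENPF and MKI67, a median of -0.64. All tested genes shifted in the same direction by far less, from -0.18 under 2 kb to 0.11 at 8 kb and over. Against Ctrl the rho of the members was -0.11 in M0, 0.27 in M1 and 0.23 in M2.

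**Figure D4:**
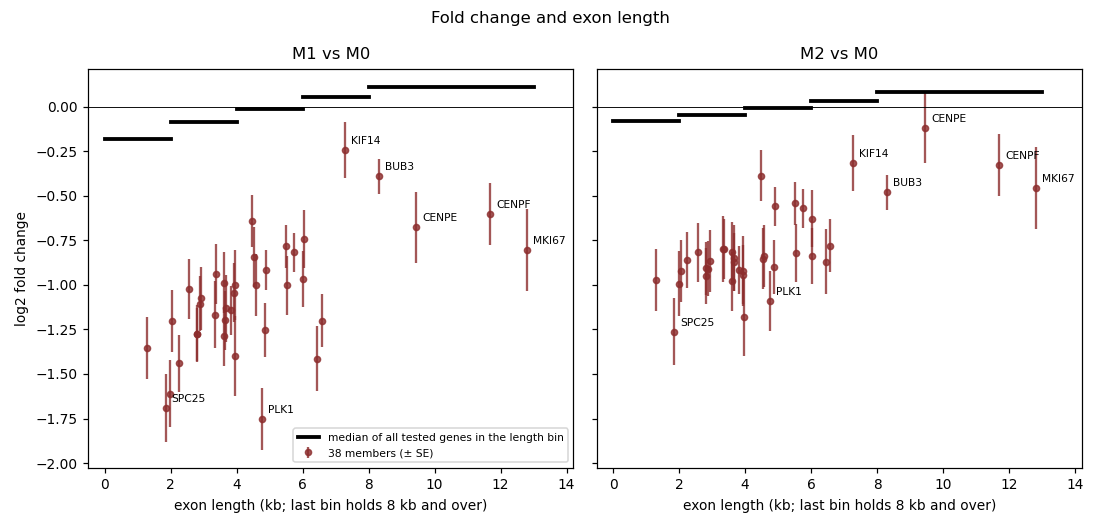
Log2 fold change ± SE of the 38 genes against exon length in kb (the union of annotated exons), with black bars at the median of all tested genes in each length bin. The longest members, CENPE, CENPF and MKI67, lie above most others in both panels, and the black bars rise slightly from left to right.

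Ctrl replicate 1 was the lowest control library for 24 of the 38 members, and the gap was wide for a few long ones. MKI67 had 349.8 CPM in Ctrl replicate 1 beside 702 and 617 CPM in the others, CENPE 154 beside 255 and 229 CPM, and CENPF 402 beside 523 and 460.2 CPM. All tested genes of 8 kb and over were 0.10 higher in that library on the log2 scale, at the median. Other long mitosis genes were not low there: ASPM (10887 bases) had 413 CPM in Ctrl replicate 1 beside 409.9 and 363 CPM, and KNL1 (10250 bases) had 186 CPM beside 182 and 167 CPM.

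The other genes of mitosis showed how far the change reached. Of 121 further genes in lists by function 92 fell and 6 rose in M1 against M0, with a median of -0.65, where 26.7% of all tested genes fell and 25.5% rose. In M2 against M0 79 fell and 1 rose, with a median of -0.42, where 12.7% of all tested genes fell and 12.5% rose. In M1 against M2 36 were lower and 5 higher, with a median of -0.18, where 16.6% of all tested genes were lower and 15.9% higher. All 15 other spindle and centrosome genes fell in M1 against M0, led by KIF18B (-1.76 ± 0.16), a kinesin of astral microtubules, and FAM83D (-1.63 ± 0.18), which recruits a kinase to the spindle. Of 28 other kinetochore and centromere genes 24 fell, led by CENPM (-2.20 ± 0.23), a subunit of the inner kinetochore, and HJURP (-1.47 ± 0.19), the chaperone that loads CENPA. All 8 condensin subunits, which compact chromosomes, fell, led by NCAPG (-1.22 ± 0.17) and NCAPH2 (-1.13 ± 0.13).

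Other lists were more mixed in M1 against M0, where the shares over all tested genes were 26.7% lower and 25.5% higher. Of 15 further kinases, phosphatases and entry regulators 11 fell, led by PKMYT1 (-1.79 ± 0.17), an inhibitory kinase of CDK1, and CDCA8 (-1.49 ± 0.18), borealin of the passenger complex. Of 18 genes of the anaphase-promoting complex and its regulators 13 fell, led by FBXO5 (-1.41 ± 0.14), its inhibitor EMI1, and UBE2S (-1.17 ± 0.14), which extends ubiquitin chains, and ANAPC4, a core subunit, rose by 0.31. Of 11 cohesin genes 5 fell, led by CDCA5 (-0.85 ± 0.10), the cohesin protector sororin, and ESCO2 (-0.51 ± 0.13), the cohesin acetyltransferase. In that list NIPBL, the cohesin loader, and PDS5A, a regulator of its release, rose by 0.25 and 0.23. Of 8 other cytokinesis genes 6 fell, led by RACGAP1 (-0.95 ± 0.15), the partner of KIF23, and DEPDC1 (-0.85 ± 0.16), while CHMP4B, a subunit of the abscission machinery, rose by 0.29.

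Among 18 transcription regulators of mitotic genes 10 fell and 2 rose in M1 against M0, beside the same shares over all tested genes. MYBL2, the activator that binds CHR promoters as part of a complex, fell by 1.68 ± 0.14 and E2F8, a repressor of the E2F family, by 1.57 ± 0.20. RBBP4, a histone-binding subunit of the same complex, rose by 0.41. CDKN1A, the CDK inhibitor p21, had 2.9, 3.48 and 3.81 CPM in Ctrl, 12, 15.2 and 26.3 CPM in M0, 78.3, 72.5 and 75.7 CPM in M1 and 23.2, 24.2 and 24.6 CPM in M2. M1 lay above all other libraries and Ctrl below them, while the M0 range held all of M2. It rose by 2.08 ± 0.19 on the log2 scale in M1 against M0 (adjusted p = 4.96e-07), and in M2 against M0 its value was 0.43 ± 0.19 (adjusted p = 0.11).

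Genes of other phases of the cell cycle were set beside the members. Of 35 genes of DNA replication and nucleotide synthesis 32 fell and 1 rose in M1 against M0, with a median of -0.71, where 26.7% of all tested genes fell and 25.5% rose. Among those with large changes were TYMS (-2.03 ± 0.22), thymidylate synthase, and TK1 (-1.63 ± 0.20), thymidine kinase. In M1 against M2 17 of the 35 were lower, where 16.6% of all tested genes were. Of the 14 G1 cyclin and CDK inhibitor genes tested 5 rose and 5 fell in M1 against M0, with a median of -0.07, so 35.7% of them fell, where 26.7% of all tested genes fell and 25.5% rose. The largest changes were those of CDKN1A, given above, CDKN2C, the CDK inhibitor p18, which fell by 1.22, and CCNE1, cyclin E1, which rose by 0.92. No test compared these lists with the members.

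The promoter letters were set beside the changes. The 24 members with TTTGAA or TTCGAA in the window had a median of -1.002 in M1 against M0 and -1.83 in M1 against Ctrl. The 7 with neither had -1.20 and -1.76. Other forms of the CHR were not searched, so these 7 lack a match but were not shown to lack a CHR. KIF14, the member that did not pass in M1 against M0, has the CHR printed above. KIF20A, the member with the largest difference from Ctrl, has no CHR match in the window. The sets with and without a match were not tested against each other.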

How the data were processed

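The authors deposited raw counts per gene, and each sample's file equalled its column in the count table in 12 of 12 cases. A deposited table of variance-stabilized values, which rise as log2 of the count, served an alternative test only. Protocols in the labels give stranded mRNA libraries and single reads of 50 nt from a pair of runs, merged in the files. Tools named in the submitters' processing notes are Bowtie2 2.2.3, DESeq2 1.20.0, FastQC 0.11.7, R 3.3.3, R 3.5.0, STAR 2.5.4b and Trimmomatic 0.36, with build hg38. No counting tool, strand setting or annotation is named (not given in the sources used here), so reads of overlapping genes cannot be told apart. Exons on the opposite strand overlap 13 members (CCNA2, CDC25C, PLK1, FOXM1, MAD2L1, NUF2, KIF20A, KIF23, KIF2C, KIF4A, HMMR, PRC1 and ANLN), and exons on the same strand 4 (BUB1B, CENPA, NUSAP1 and PRC1).

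All 12 libraries entered 1 model of group means in edgeR 4.0.16 (R 4.3.3) with the quasi-likelihood F test, TMM factors, and filterByExpr at a count of 10 and a total of 15. Calls used a Benjamini-Hochberg adjusted p under 0.05 over 14088 genes. SE is the size of the log2 fold change over the square root of F, with 1 spread per gene for all 4 groups. Coordinates and exon lengths came from GENCODE release 29 (GRCh38). Alternatives used DESeq2 1.42.0, limma 3.58.1, other scaling, filter and fold settings, left-out libraries and a replicate block. The calling script was tested on simulated data. All 38 members are named by role, with values per library for the largest change of each role, for members not called in M1 against M0, and for others chosen after their values were seen. In lists of other mitosis genes the 2 largest called changes and called genes that moved against the list's median are named, and in the replication and G1 lists up to 3 of the largest called changes (1 gene is not reported here). Members and lists were chosen with earlier results of these data known.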

Additional observations from a re-analysis of the deposited data

How the results depend on the processing

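The counts of members lower in M1 against M0 (34 to 38), M2 against M0 (29 to 37, apart from 1 setting), M0 against Ctrl (26 to 37), M1 against Ctrl (37 or 38) and M2 against Ctrl (37 or 38) stayed within 1.5 times their values under DESeq2, limma on the deposited values, other scaling, no filter, a 1.5-fold minimum, fits of 2 groups and single left-out libraries. The joint test called 34 to 38 under the same alternatives other than the 1.5-fold minimum and fits of 2 groups, which were not run for it. The exception among the counts of lower members was M2 against M0 with both M0 replicate 3 and M2 replicate 2 left out, at 11 (33 with all libraries). By summed level these are the highest M0 and the lowest M2 library. The count in M1 against M2, 7 in the analysis as reported, was 2 at a 1.5-fold minimum, 21 without a filter, 0 to 12 with 1 library left out and 11 with M0 replicate 3 and M2 replicate 2 left out. In M0 against Ctrl 1 member, BUB3, was higher without a filter, and leaving out 1 library gave 0 to 1. The cause of these changes was not tested.

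Values that changed sign were small and belonged to members not called in that comparison. With 1 library left out, values in M1 against M2 ran from -0.18 to 0.12 for KIF4A, -0.053 to 0.26 for KIF14, -0.32 to 0.015 for BUB1, -0.29 to 0.079 for HMMR, -0.23 to 0.074 for CDK1, -0.32 to 0.0015 for TTK, -0.28 to 0.040 for NUF2, -0.38 to 0.045 for KIF20A and -0.30 to 0.0027 for ANLN. KIF4A was -0.040 there without scaling and -0.029 with both M0 replicate 3 and M2 replicate 2 left out. In M0 against Ctrl the ranges were -0.36 to 0.042 for CCNB2 and -0.44 to 0.023 for CDC25C, the high ends without M0 replicate 2. In M2 against M0 CENPE ran from -0.32 to 0.040, and was 0.14 with both libraries left out.

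Same-numbered libraries of different groups did not deviate together throughout: 6 of 18 such pairs had a correlation over 0.1 (-0.16 to 0.26), and 9 of 12 libraries correlated best with one of their own number. The highest correlation between groups, 0.33, was that of M0 replicate 3 and M2 replicate 1, whose numbers differ. In both of these libraries all 38 members were the highest of their group. A block by replicate number cannot take up a deviation that they share, and its source was not tested. With the replicate block the counts of members lower were 37 in M1 against M0, 33 in M2 against M0, 5 in M1 against M2, 29 in M0 against Ctrl, 37 in M1 against Ctrl and 38 in M2 against Ctrl, and the joint test called 37. With 3 libraries a group, 1 library moves a group mean of these genes visibly, and differences between M1 and M2 of the size seen here were at the limit of what these libraries show.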
